A study of Mus musculus with 4 samples.

Results

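The amino acid response is the transcriptional programme by which cells adjust to a shortage of amino acids, and 38 genes of it were listed here: its regulators, the kinases and phosphatase of eIF2α, stress effectors, enzymes of amino acid and one-carbon synthesis, and the cytosolic aminoacyl-tRNA synthetases that charge tRNAs. The rule lists the genes by name and function and uses no measured value, though the list was drawn up with earlier results of these data known. Of the 38, 37 had a probe set that named them alone, on 87 probe sets in all. *Pycr1*, an enzyme of proline synthesis, had none. A gene was tested where a probe set was called Present, that is detected above its mismatch probes, on at least 2 of the 4 arrays, and, where several probe sets qualified, was read at the one brightest on average. This left 33 of the 38 genes among 10350 tested.

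RNA of non-tumorous liver was hybridised to GeneChip Mouse 430 2.0 arrays, 1 array per mouse. The 2 WT mice were labelled WT and the 2 G9aΔHep mice were labelled G9aKO. The paper bred G9aΔHep mice from G9aflox/flox mice and an albumin-Cre (Alb-Cre) line. It does not state whether the WT mice carried Alb-Cre. All were males backcrossed to C57BL/6 that received 25 mg/kg of the carcinogen DEN at day 15 and then 22 weekly injections of 0.5 ml/kg of the hepatotoxin CCl4, and all were 30 weeks old. Alb-Cre acts in hepatocytes, the cells that express albumin, so the other cells of the liver kept G9a, and whole-tissue RNA holds both. In such tissue, fewer cells of a type and less RNA per cell cannot be told apart.

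In the integrated stress response, the kinase GCN2 (*Eif2ak4*) senses uncharged tRNA and PERK (*Eif2ak3*) senses unfolded protein in the endoplasmic reticulum, and both phosphorylate eIF2α. Phosphorylated eIF2α lowers general translation while allowing translation of ATF4, a transcription factor that pairs with C/EBP proteins on C/EBP-ATF response elements and induces genes for amino acid synthesis, transport and tRNA charging. Since ATF4 is controlled largely at translation, the level of its mRNA is not a measure of its activity.

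Signals were MAS5 intensities scaled to a common trimmed mean, and between 41.3 and 43.9% of probe sets were called Present on each array. *Ehmt2*, which encodes G9a, had signals of 640 and 492 in WT and of 174 and 164 in G9aΔHep, where it was called Absent on both arrays. Its level was estimated as 3.33-fold higher in WT (adjusted p = 0.0630, limma with Benjamini-Hochberg adjustment over all genes tested). The log2 fold change, G9aΔHep over WT, was -1.73 ± 0.23 (SE), with a confidence interval of -2.30 to -1.17. The hepatocyte markers, *Alb* among them, were detected in both groups, with log2 fold changes of -0.23 to 0.04 and a median of -0.03 over 7 genes. Fold changes are given as G9aΔHep over WT throughout, and a gene was called at an adjusted p under 0.05.

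*Asns*, which encodes asparagine synthetase, the enzyme that makes asparagine from aspartate and glutamine, was the member that rose. Its signal was 659 and 270 in the WT livers and 5355 and 4441 in the G9aΔHep livers, with Present calls on all 4 arrays. Both G9aΔHep arrays lay far above both WT arrays, and the lowest G9aΔHep signal was 6.73 times the highest WT signal. The WT arrays differed from each other 2.44-fold and the G9aΔHep arrays 1.21-fold. Group means were 465 ± 275 in WT and 4898 ± 647 in G9aΔHep (SD, n = 2 each). The log2 fold change was 3.53 ± 0.40 (SE), with a 95% confidence interval of 2.55 to 4.51, or 11.5-fold (adjusted p = 0.0361, limma). It ranked 11 by fold change and 33 by p-value among the 10350 genes. The second *Asns* probe set, of a design type that can also match other transcripts, gave signals of 479 and 176 in WT and of 4505 and 3538 in G9aΔHep. Its log2 fold change was 3.78, with an SE of 0.43, in a fit of every tested probe set (adjusted p = 0.0345, limma). In that fit 2 of the 57 member probe sets, both of *Asns*, were called higher, beside 0.233% of all probe sets, and none was called lower, beside 0.0466%. At an unadjusted p under 0.05, 3 were higher, the third being of *Nupr1*, beside 5.36% of all probe sets, and 1 of *Psph* was lower, beside 3.95% (limma). The call at *Asns* was lost without the first G9aΔHep array, where the log2 fold change was 3.39 and the adjusted p 0.0501, and under some other settings given in the closing section.

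*Asns* was the only member called. It was 1 of 33, beside 0.319% of all 10350 genes called higher, and no member was called lower, beside 0.0676% of all genes. At an unadjusted p under 0.05, limma also gave *Asns* alone as higher, beside 5.92% of all genes, and no member as lower, beside 4.1%. At that level the methods' t-test gave 2 higher and 0 lower. The 2 were *Asns* and *Mthfd1l*. The share of all genes is not given for that test, so its counts are not read as a lean of the members. Of the 33, 13 had a log2 fold change above 0, beside 53.4% of all genes, and 20 below 0, beside 46.6%. *Asns* and *Nupr1* were the members with one of at least 1 in size, beside 3.63% of all genes. The median was -0.11, or -0.14 without *Asns*, beside 0.02 over all genes tested. Both G9aΔHep arrays were above both WT arrays for 5 members, or 15.2%, beside 22.3% of all genes. They were below for 6 members, or 18.2%, beside 19.3% of all genes. These shares were near the background. The other 32 members had log2 fold changes of -0.67 to 1.75 and a smallest adjusted p of 0.501 (limma). For 28 of the 32 the upper 95% limit was under 1, so a doubling lay outside their intervals, as for 79.6% of all genes. For 22 the whole interval lay between -1 and 1, beside 71.9% of all genes. The plot of fold changes by role shows *Asns* apart from the other members.

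**Figure D1:**
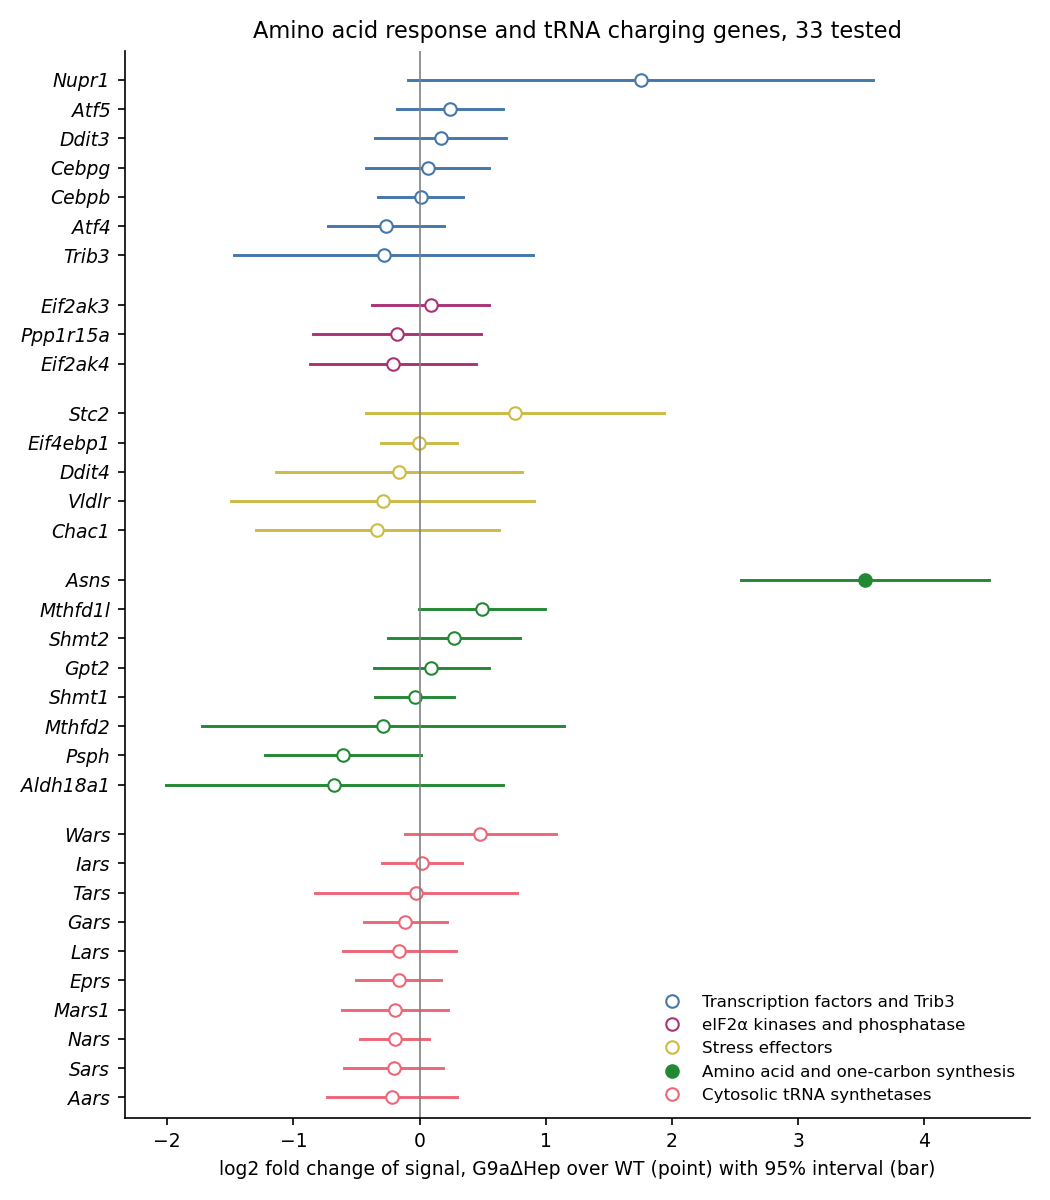
Log2 fold change, G9aΔHep over WT, on the x axis for each of the 33 tested members, grouped by role, with bars for 95% confidence intervals (limma, n = 2 per group). *Asns* sits at 3.53 with an interval of 2.55 to 4.51, and the intervals of the other 32 members include 0.

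The *Asns* promoter is shown because it holds the motif through which ATF4 is known to act and because *Asns* was the member that moved. The C/EBP-ATF response element was searched as TGATGNAA on both strands of the window from 250 bases before to 50 bases after each transcription start in RefSeq's GRCm38.p6 sequences. The last 100 bases before the *Asns* start, chr6:7693210-7693309 on the minus strand, are written along the gene with the match in capitals:
Asns: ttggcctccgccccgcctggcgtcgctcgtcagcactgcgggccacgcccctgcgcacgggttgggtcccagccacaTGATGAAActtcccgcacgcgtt
The match lay at positions -23 to -16 from the start.

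The same element was found in 11 of the 34 members with a promoter window, or 32.4%, beside 4.51% of all 27025 genes with one. Such a match is a description of letters and not an occupied site. Windows of 30 bases around the matches of 6 further members follow, written along each gene with the match in capitals, and are shown so that their differing bases and positions can be set beside the fold changes. A match on the opposite strand appears as its reverse complement. Windows of *Vldlr*, at a log2 fold change of -0.29, and of *Pycr1* and *Yars*, which were not tested, also held a match and are not written out.
Nupr1, chr7:126625562-126625591, minus strand, match at -110 to -103: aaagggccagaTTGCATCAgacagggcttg
Trib3, chr2:152344028-152344057, minus strand, match at 15 to 22: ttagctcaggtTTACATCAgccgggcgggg
Chac1, chr2:119351038-119351067, plus strand, match at -193 to -186: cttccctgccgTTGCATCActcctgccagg
Gars, chr6:55037960-55037989, plus strand, match at -30 to -23: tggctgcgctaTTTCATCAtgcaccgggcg
Tars, chr15:11399655-11399684, minus strand, match at -15 to -8: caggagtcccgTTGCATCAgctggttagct
Iars, chr13:49682126-49682155, plus strand, match at 8 to 15: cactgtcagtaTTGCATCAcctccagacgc

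The 9 tested members with a match had a median log2 fold change of -0.11 and a range of -0.33 to 3.53, and the highest after *Asns* was *Nupr1* at 1.75. The 20 tested members with a window and no match had a median of -0.10 and a range of -0.67 to 0.75. The medians differed little, and 1 member with a match and 0 without were called (limma). The E-box CACGTG, a motif bound by MYC and other factors, was present in 5 of 34 members, or 14.7%, beside 8.09% of all genes. These were *Nupr1*, *Aldh18a1*, *Aars*, *Iars* and *Tars*. The endoplasmic reticulum stress element, searched as CCAAT and CCACG separated by 9 bases, was in no member window, beside 0.137% of all genes. No match of one motif overlapped a match of another.

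**Figure D2:**
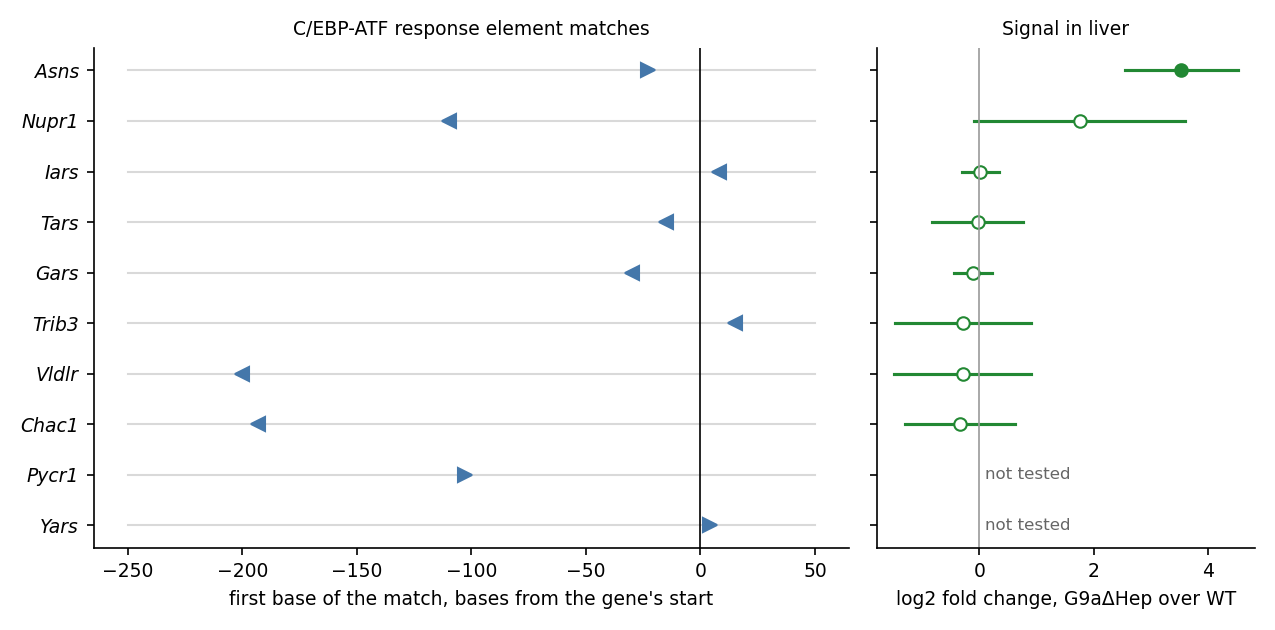
Position of each match to the C/EBP-ATF response element relative to the transcription start in bases (x axis) for 10 of the 11 members with one in the RefSeq promoter window, with the triangle pointing right where the match reads along the gene and left where it reads on the opposite strand; the right panel gives each member's log2 fold change with its 95% confidence interval. The *Asns* match begins at -23, and matches on either side of the start stand beside fold changes near 0 in *Iars*, *Tars* and *Gars*.

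Among the regulators, *Atf4*, the transcription factor of the pathway, had signals of 3402 and 3012 in WT and of 3143 and 2257 in G9aΔHep. The groups overlapped, and the log2 fold change was -0.27 ± 0.19 (SE), with an interval of -0.72 to 0.19 (adjusted p = 0.692, limma). A second *Atf4* probe set gave 0.10. *Atf5*, a related factor that is itself controlled at translation, had signals of 5842 and 6282 in WT and of 8402 and 6095 in G9aΔHep. Its groups overlapped, and its log2 fold change was 0.24. *Ddit3*, which encodes the stress factor CHOP, had signals of 508 and 463 in WT and of 631 and 470 in G9aΔHep, again overlapping. Its log2 fold change was 0.17 ± 0.21 (SE), with an interval of -0.35 to 0.69 (adjusted p = 0.831, limma). *Cebpb* and *Cebpg*, which encode C/EBP partners of ATF4, had log2 fold changes of 0.01 and 0.06.

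*Nupr1*, a stress-inducible chromatin protein, had the second largest fold change of the members. Its signals were 33 and 156 in WT, called Absent and Marginal, and 327 and 179 in G9aΔHep, called Present on both. The G9aΔHep arrays were the higher ones, but the second lay close to the second WT array. The log2 fold change was 1.75 ± 0.76 (SE), with an interval of -0.10 to 3.60 (adjusted p = 0.524, limma), and without the first WT array it was 0.63. The second *Nupr1* probe set was Absent on all 4 arrays. *Trib3*, a pseudokinase induced by ATF4 and CHOP, had signals of 409 and 788 in WT and of 300 and 722 in G9aΔHep. The arrays varied as much within each group as between the groups, and the log2 fold change was -0.29. The median over the 7 regulators was 0.06.

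Of the eIF2α kinases, *Eif2ak3* had signals of 568 and 689 in WT and of 719 and 613 in G9aΔHep, which overlapped, with a log2 fold change of 0.09 and an interval of -0.38 to 0.55. *Eif2ak4* had signals of 183 and 169 in WT and of 148 and 155 in G9aΔHep. Both G9aΔHep arrays were slightly lower, with a log2 fold change of -0.21 and an interval of -0.87 to 0.44. *Ppp1r15a*, which encodes the phosphatase subunit GADD34 that restores translation, had a log2 fold change of -0.18. These are mRNA levels, and phosphorylation of eIF2α was not measured.

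Among the stress effectors, *Chac1*, an enzyme that degrades glutathione, had signals of 333 and 430 in WT and of 444 and 203 in G9aΔHep. The G9aΔHep arrays held both the highest and the lowest signal, and the log2 fold change was -0.33. *Ddit4*, an inhibitor of mTORC1, was at -0.16, *Eif4ebp1*, a repressor of cap-dependent translation, at -0.01 and *Vldlr*, a lipoprotein receptor, at -0.29. *Stc2*, a secreted glycoprotein, had signals of 40.4 and 65.8 in WT and of 81.0 and 93.4 in G9aΔHep. Its groups did not overlap, but the log2 fold change of 0.75 did not pass the test (adjusted p = 0.656, limma). *Sesn2*, an inhibitor of mTORC1 that senses leucine, was Present on only 1 array and was not tested.

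**Figure D3:**
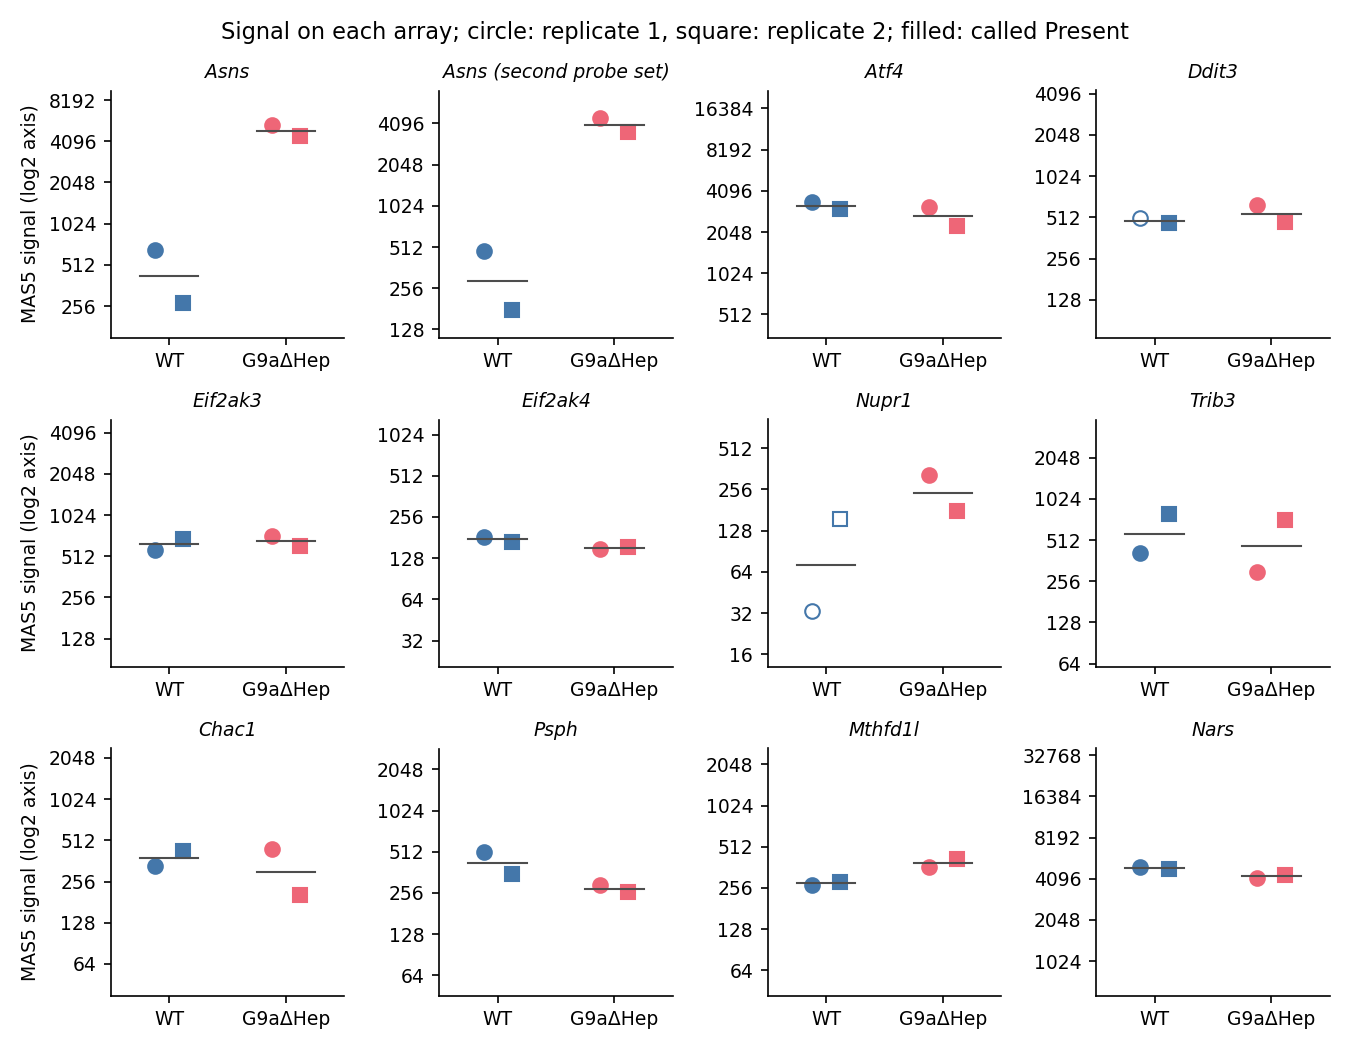
MAS5 signal on a log2 axis (y) for each of the 4 arrays, WT and G9aΔHep side by side, in 11 members with *Asns* shown for both its probe sets; each point is 1 array, open where it was not called Present, and bars are geometric means. The *Asns* points of the groups are at least 6.73-fold apart, while those of *Atf4*, *Ddit3* and *Trib3* overlap.

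None of the other 7 tested enzymes of amino acid and one-carbon synthesis passed the test. *Psph*, the last enzyme of serine synthesis, had signals of 508 and 350 in WT and of 292 and 261 in G9aΔHep. Both G9aΔHep arrays were the lower ones, with a log2 fold change of -0.61 (adjusted p = 0.501, limma). *Mthfd1l*, a mitochondrial enzyme of formate production, had signals of 270 and 282 in WT and of 366 and 414 in G9aΔHep. Both G9aΔHep arrays were the higher ones, with a log2 fold change of 0.50 (adjusted p = 0.501, limma). *Mthfd2*, another mitochondrial folate enzyme, was at -0.29, and the serine hydroxymethyltransferases *Shmt1* and *Shmt2* at -0.04 and 0.27. *Gpt2*, an alanine aminotransferase, was at 0.09. *Aldh18a1*, which starts proline synthesis from glutamate, was at -0.67. Without *Asns* the 7 tested members of this role had a median of -0.04. *Phgdh* and *Psat1*, the enzymes before *Psph* in serine synthesis, were not tested. *Psat1* was Absent on all 4 arrays at both its probe sets, and of 4 *Phgdh* probe sets 1 was Present on 1 WT array.

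The aminoacyl-tRNA synthetases, which attach amino acids to their tRNAs, had small fold changes. Of the 10 tested cytosolic members, 8 had log2 fold changes below 0, or 80%, beside 46.6% of all genes. The median was -0.16 with standard errors of 0.11 to 0.33, and none was called. *Nars*, which charges tRNA with asparagine, the product of asparagine synthetase, had signals of 5032 and 4800 in WT and of 4179 and 4390 in G9aΔHep. Both G9aΔHep arrays were the lower ones, with a log2 fold change of -0.20. *Aars* was at -0.22, *Sars* at -0.20, *Mars1*, the current name of *Mars*, at -0.19, *Eprs* at -0.17, *Lars* at -0.16, *Gars* at -0.11, *Tars* at -0.03 and *Iars* at 0.02. *Wars*, the tryptophan synthetase, was at 0.48, while its other tested probe set gave -0.18. For 9 of the 10, the interval lay between -1 and 1, beside 71.9% of all genes. *Yars*, the tyrosine synthetase, was Present on 1 array and was not tested. Of the 15 members with several tested probe sets, 9 had fold changes of the same sign on all of them, and *Atf4*, *Cebpg*, *Gpt2*, *Shmt1*, *Shmt2* and *Wars* had both signs.

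Lists of neighbouring pathways held no gene called by limma, beside 0.319% of all genes called higher and 0.0676% called lower. The methods' t-test called 0 of the 10350 genes, so it could not have called any in these lists. Of 14 tested further targets of ATF4, the median log2 fold change was 0.06. An unadjusted p under 0.05 was reached by 2 that were higher, beside 5.92% of all genes, and by 2 that were lower, beside 4.1% (limma). These were *Vegfa*, an angiogenic growth factor, at 0.43, *Slc6a9*, a glycine transporter, at 0.40, *Cth*, the cysteine-producing enzyme of transsulfuration, at -0.42 (adjusted p = 0.230) and *Sqstm1*, an autophagy receptor, at -0.36. The 17 genes of the ATF6 and XBP1 branch of the unfolded protein response, the arms that do not run through eIF2α, had a median of -0.08, and none passed an unadjusted p of 0.05. The 13 tested genes of eIF2 and translation initiation had a median of -0.13, and 1 was lower at an unadjusted p under 0.05 (limma). This was *Eif2b5*, a subunit of the exchange factor of eIF2, at -0.42 (adjusted p = 0.434).

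Other synthetases were also near 0. The 10 tested further cytosolic synthetases and cofactors had a median of -0.17, and 1 was lower at an unadjusted p under 0.05, beside 4.1% of all genes. This was *Farsb*, a subunit of the phenylalanine synthetase, at -0.38 (adjusted p = 0.456, limma). The 11 tested mitochondrial synthetases had a median of 0.06, and none reached that level.

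The genes that make or use the substrates and product of asparagine synthetase were 7 tested, with a median of 0.16. *Asl*, a urea cycle enzyme downstream of aspartate, had signals of 25676 and 24791 in WT and of 15585 and 15390 in G9aΔHep. The groups were well apart, with a log2 fold change of -0.70, but the gene did not pass the threshold (adjusted p = 0.0630, limma). *Got1*, which makes aspartate, was at -0.51, *Glul*, which makes glutamine, at 0.47 and *Aspg*, which breaks down asparagine, at 0.20. *Asrgl1* was at 0.33, *Ass1* at 0.16 and *Got2* at -0.17. An unadjusted p under 0.05 was reached by 1 of the 7 that was higher, beside 5.92% of all genes, and by 2 that were lower, beside 4.1% (limma). Genes of serine, glycine and proline turnover, 9 tested, had a median of -0.19, with 2 lower at that level, beside 4.1% of all genes. These were *Gpt*, an alanine aminotransferase, at -0.60 and *Gcsh*, a protein of the glycine cleavage system, at -0.26. The 8 tested genes of the folate and methionine cycle had a median of -0.11, and none reached that level.

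**Figure D4:**
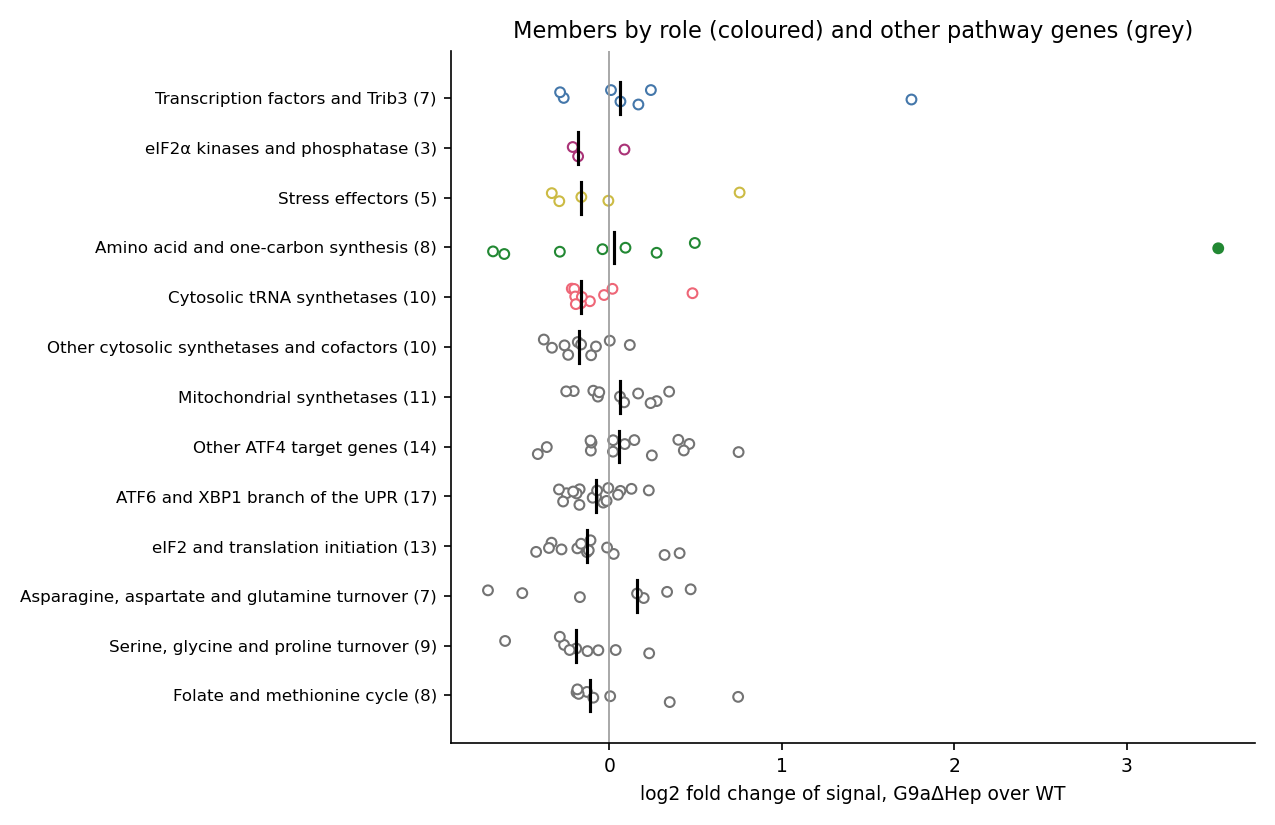
Log2 fold change, G9aΔHep over WT (x axis), for every tested gene of each list, with 1 point per gene, filled where it was called, and a bar at the list's median; numbers in brackets count the genes tested. *Asns* lies at 3.53, and the medians of the pathway lists lie between -0.19 and 0.16.

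Markers of some other cells differed between the arrays on which *Asns* was read, and not all in 1 direction. The 5 tested markers of liver tumour cells, 4 of them above 0, had a summed signal of 1336 and 1110 in WT and of 5578 and 2261 in G9aΔHep. *Afp*, the oncofetal alpha-fetoprotein, had signals of 252 and 116 in WT and of 3058 and 1159 in G9aΔHep (log2 fold change 3.46 ± 0.54, SE; adjusted p = 0.0957, limma). *Cd24a* was at 1.71 (adjusted p = 0.268, limma), *Tspan8* at 0.78, *Gpc3* at 0.03 and *Golm1* at -0.27, and the last 3 overlapped between the groups. Without *Afp* the sum was 1084 and 994 in WT and 2520 and 1103 in G9aΔHep, the second G9aΔHep array then lying close to the first WT array. All 8 macrophage markers were above 0, with summed signals of 23363 and 35861 in WT and of 53552 and 33792 in G9aΔHep, and all 7 stellate cell and fibroblast markers were above 0, with sums of 9729 and 14247 in WT and of 18636 and 11849 in G9aΔHep. The macrophage and stellate sums overlapped between the groups and the tumour sums did not. By gene, both G9aΔHep arrays were above both WT arrays for 2 of the 8 macrophage markers, or 25%, and for 6 of the 7 stellate cell and fibroblast markers, or 85.7%, beside 22.3% of all genes. The exception was *Dcn*, which made up most of the stellate sum, and without it the sum was 2968 and 3123 in WT and 6433 and 3610 in G9aΔHep. *Acta2*, an actin that stellate cells make on activation, was at 1.10 (adjusted p = 0.198, limma). Of 5 markers of the exocrine pancreas, a tissue rich in *Asns*, only *Cela1* was tested, at 0.02. None of these markers was called, and their part in the *Asns* result was not tested.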

How the data were processed

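Liver RNA of 4 mice was measured on GeneChip Mouse 430 2.0 arrays. The authors deposited a MAS5 signal intensity per probe set, with a detection p-value and a Present, Marginal or Absent call; which version of the software they used is not stated in the paper or labels, and the trimmed mean was 500 on each array. The deposited series table held the same signals. Probe sets were named from the platform annotation, and of 45101 probe sets 34945 named 1 gene, 932 several and 9160 none, beside 64 controls. Signals were taken to log2 without further scaling, and genes Present on at least 2 arrays were fitted with limma 3.58.1 in R 4.3.3 (lmFit, eBayes with trend; 2 residual degrees of freedom) with Benjamini-Hochberg adjustment over 10350 genes at a threshold of 0.05. The moderated test borrows its spread from all genes, since an exact permutation test of 2 against 2 arrays cannot go below p = 0.33. MAS5 signals near background vary most on the log2 scale, and arrays limit precision by their number. The fits were tested on simulated data for the size of their fold changes. The simulated spread depended on mean signal alone, as the fit assumes, so it does not test error rates where genes differ in spread. The tissue and both genotypes were taken from the labels. The limma p-values rest on the spread between these mice combined with a spread shared over all genes, and not on the mice alone.

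Members with an adjusted or unadjusted limma p under 0.05 were named, as were those with a log2 fold change of at least 1 in size. *Atf4*, *Ddit3*, *Eif2ak3* and *Eif2ak4* were named whatever their change. Further members were named by role, after their values were seen. For most other lists, genes with the smallest p were named. Outside that rule, all tested genes of the asparagine synthetase substrate and product list and of the liver tumour list were given, and *Alb* and *Dcn* were named. The members and lists were chosen with earlier results of these data known. The alternatives were quantile normalization, median centring, other detection filters, a pseudocount of 50, every probe set or their mean, no trend, a t-test, the series table and leaving out each array. Motifs were searched in RefSeq GRCm38.p6 windows; *Eif4ebp1*, *Wars*, *Nars* and *Lars* had none. The promoter match of 1 member is not reported here.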

Additional observations from a re-analysis of the deposited data

How the results depend on the processing

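*Asns* was higher in G9aΔHep under all 14 alternatives and past the threshold in 10 of them (adjusted p 0.0179 to 0.561, limma or the t-test). Its log2 fold change stayed 3.53 where the call was lost with no detection filter (adjusted p = 0.0552), with no trend (0.212) and in the t-test (0.561), and 0 members were called higher there. Leaving out 1 array gave 2.89 to 4.17, with 0 to 1 members called higher and a lost call without the first G9aΔHep array. No other member was called in any alternative. Over all genes, 40 were called, and 0 with no trend or in the t-test; leaving out 1 array gave 8 to 71. Members whose arrays did not overlap upward were 2 where Present was required on all 4 arrays. With 1 array left out they were 6 to 13 upward and 9 to 15 downward, a count that fewer arrays make larger. The share of all genes is not given for these settings, so the counts are not read as a lean of the members. The median of the members was -0.16 with Present on all 4 arrays, -0.18 with median centring, -0.040 with no filter and -0.10 to 0.010 with 1 array left out, above 0 without the second G9aΔHep array. No scaling moved the median of all genes by over 0.063. No paired analysis was possible because the labels give no replicate numbers shared between the genotypes. Probe sets that were not Present carry no measured order, so small changes in the untested members were not detectable.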

Other observations

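The genes around *Asns* on chromosome 6, 10 tested on each side and chosen after its value was seen, had log2 fold changes of -0.50 to 1.45 with a median of 0.08. None of the 20 was called (limma, smallest adjusted p 0.468). At an unadjusted p under 0.05 there were 2, *Sgce* at -0.50 and *Ppp1r9a* at 0.54. Over all genes 5.92% were higher and 4.1% lower at that level. The nearest tested genes were *Tac1* at 0.70 and *C1galt1* at 0.14. The highest was *Pdk4*, a kinase that inhibits pyruvate dehydrogenase, at 1.45.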
